A study of Mus musculus with 22 samples.

Results

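Nonclassical monocytes were compared between circulating ZsGreen+ cells of tumor-free mice (non-tumor circulating ZsGreen+ cells, ntCZC) and dissociated solid organs of mice of the same strain. A cell was chosen by its own unique molecular identifier (UMI) counts, each UMI standing for 1 captured RNA molecule: at least 500 detected genes, at most 25% mitochondrial UMIs, at least 1 UMI of Csf1r, at least 1 UMI in at least 2 of the 5 genes Treml4, Adgre4, Pglyrp1, Ace and Ifitm6, and 0 UMIs of C1qa, Ly6c2, Cd79a, Cd3e and Retnlg. This rule selected 1914 of the 179929 deposited cells, of which 876 came from 10 ntCZC libraries and 886 from 9 tissue libraries of stated genotype, 1762 in all. Libraries with at least 20 such cells were compared, which left 863 cells of 7 ntCZC libraries and 870 cells of 7 tissue libraries.

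All mice carried Prom1-CreERT2, a tamoxifen-inducible Cre recombinase that acts in cells expressing the stem cell marker Prom1, and Rosa26ZSG, a reporter that makes the green protein ZsGreen in recombined cells and their descendants. Nalcn, which codes for a sodium leak channel, was wt, het or null, the labels name no oncogenic allele, and the mice were 551 to 654 days old. The 7 ntCZC libraries were 1 wt, 3 het and 3 null, the 7 tissue libraries were 4 wt, 2 het and 1 null, and each set held 5 male and 2 female libraries. The ntCZC were sorted from peripheral blood for ZsGreen after red cell lysis, whereas each tissue library pooled kidney, liver, lung and stomach with epididymis or uterus, taken after perfusion and dissociated with collagenase and other enzymes. Blood or organ, the ZsGreen sort, and perfusion and dissociation therefore went together, and their parts in any difference cannot be told apart. Genotype was unbalanced between the sets as well. With genotype as a covariate 1447 of 4915 genes passed the test used below, 1421 of them among the 1984 called without it (71.6%). All 36 genes named by rule, which were chosen for large changes in these data, kept their call. A ZsGreen+ blood cell need not have expressed Prom1 itself, and no ZsGreen sort is described for the tissue suspensions.

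Nonclassical monocytes are the Ly6C-low blood monocytes that crawl along the inside of small vessels and take up debris and immune complexes. They arise from Ly6C-high classical monocytes, depend on the nuclear receptor Nr4a1 and the enhancer-binding factor Cebpb, and respond to CX3CL1 through Cx3cr1.

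The cells made up a median of 38.0% of the cells that passed the quality limits in the 10 ntCZC libraries (range 0 to 59.3%) and of 1.11% in the 9 tissue libraries (0.222 to 4.30%). In the 1 ntCZC library without any, 0 of 8 cells qualified, which allows a share of up to 37.5%. The sort and the pooling of organs can set these shares. Median UMIs per cell were 3521 to 6888 in the compared ntCZC libraries and 1521 to 4276 in tissue, and summed UMIs per library were 143380 to 1413647 and 123013 to 1597394. Mitochondrial UMIs were a median of 1.78 to 2.37% of each cell in ntCZC and of 7.69 to 16.0% in tissue, with no overlap between the 7 and 7 libraries. Of 1914 such cells in all libraries, 91 had a barcode that also occurred in another library (4.75%), and 1 barcode belonged to a chosen cell in 2 libraries.

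**Figure D1:**
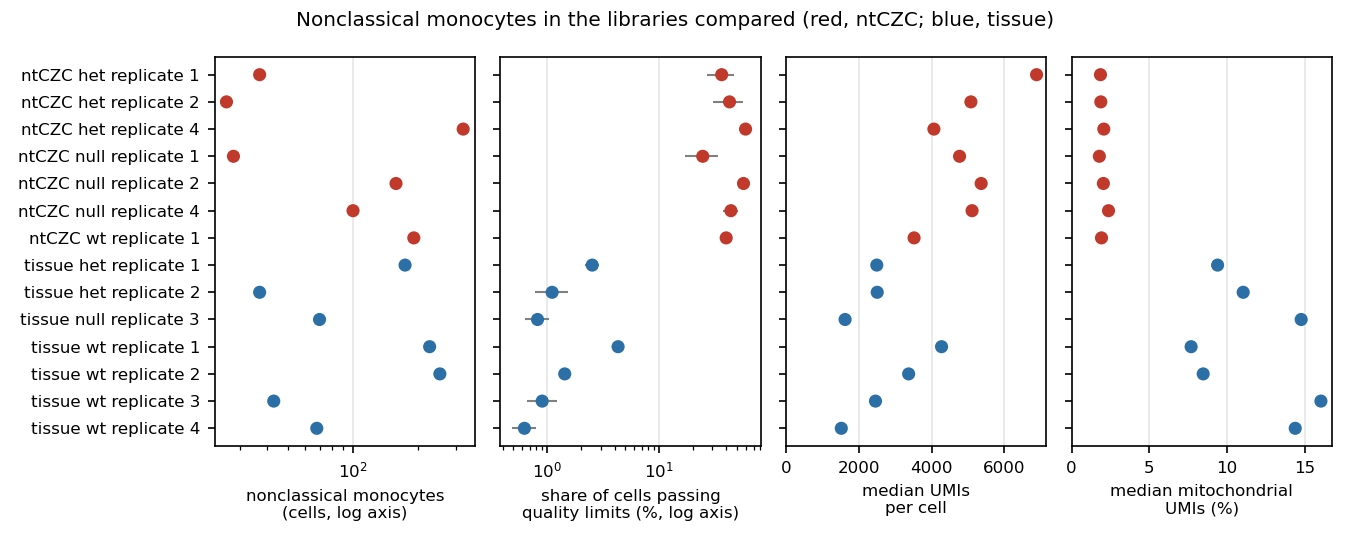
Number of nonclassical monocytes, their share of cells passing the quality limits (bars, 95% Clopper-Pearson intervals covering counting error only), median UMIs per cell and median mitochondrial UMIs in the 14 libraries compared. The mitochondrial share lies between 1.78 and 2.37% in the ntCZC libraries and between 7.69 and 16.0% in the tissue libraries.

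The label was set against markers that the rule did not use. The adhesion molecule gene Spn (CD43) and the fractalkine receptor gene Cx3cr1 were higher in the chosen cells than in the other cells of the same library in 7 of 7 tissue libraries, where the other cells averaged 22.9 and 23.3 CPM (UMIs of a gene scaled to the same total in each library, 1e+06). Those other cells were a mix from whole organs, so this cannot tell nonclassical monocytes from other monocytes or leukocytes. The same comparison within ntCZC libraries is not given here. The summed level of 8 classical monocyte genes was 340 to 950 CPM in ntCZC and 1105 to 3357 CPM in tissue, where the other cells had a median of 1276 CPM, and Ly6c2 was at 0 by the rule. Genes of resident lung macrophages (the alveolar macrophage list) summed to 337 to 867 CPM (median 656) in ntCZC, where the other cells had a median of 159 CPM. Siglecf, Krt79, Krt19, Fabp1 and Atp6v0d2 were at 0 there, so the ntCZC sum came from Ear1, Ear2 and Chil3. Chil3 is also 1 of the 8 classical monocyte genes, so the 2 lists are not separate. In tissue the alveolar macrophage list summed to 1356 to 4594 CPM (median 1745), where the other cells had a median of 1494 CPM. For both lists the medians of the tissue cells were thus near those of the rest of their libraries, with a classical median of 1226 CPM. Their ranges ran higher, since the rest had 547 to 1634 CPM of the classical and 650 to 2097 CPM of the alveolar macrophage list. Tissue cells with only 2 of the 5 markers had 2873 CPM of the classical and 3875 CPM of the alveolar macrophage list against 1225 and 1902 CPM in those with all 5. Csf1r and the 5 markers together were 951 and 3410 CPM in them, so with 2 markers the other myeloid lists were the higher. In tissue cells with 3 markers they were 2130 CPM, against 2182 CPM of the alveolar macrophage and 1655 CPM of the classical list. Cells with 2 and with 3 markers made up 39.4 and 28.9% of the chosen tissue cells, so the name is least certain for them. In ntCZC, cells with 2 and with 5 markers had 1750 and 333 CPM of the classical list. For 8 genes of large peritoneal macrophages these ntCZC cells had 657 and 31.1 CPM. Of 8 endothelial genes, 7 were at 0 in ntCZC (Cdh5, Cldn5, Egfl7, Ptprb, Tie1, Tek and Plvap), and the list summed to 0 to 6.97 CPM there against 503 to 1022 CPM in tissue, where the other cells of the libraries had a median of 846 CPM.

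Cells near the limit of the rule were not alike in the 2 compartments. All 5 marker genes were detected in 40.6% of the ntCZC cells and in 10.1% of the tissue cells, and only 2 in 10.4% and 39.4%. Just outside the rule, 45 ntCZC cells and 884 tissue cells had 1 marker. The requirement of 0 UMIs for the 5 excluded genes removed 209 of 1072 ntCZC candidates (19.5%) and 959 of 1829 tissue candidates (52.4%), most often for Ly6c2. The levels of the 11 genes of the rule are therefore a description: Treml4 was 346 to 578 CPM in ntCZC and 115 to 282 CPM in tissue, and Ace, the angiotensin-converting enzyme gene, was 496 to 796 and 290 to 587 CPM. Genes that go with the excluded ones, such as C1qb, Cd79b and S100a8, can be lowered by the same choice.

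Of 4915 genes tested across the 14 libraries with edgeR's quasi-likelihood test, 1984 passed an adjusted p of 0.05 (40.4%), 938 higher in ntCZC (19.1%) and 1046 lower (21.3%), with a median log2 change over all genes of 0.01. The 2 sets of 7 libraries did not overlap for 787 genes (16%). All changes below are ntCZC minus tissue, given as log2 change ± SE, with n = 7 libraries a side, and a level is CPM over the summed UMIs of the chosen cells of a library. The labels do not say which libraries came from the same mouse, so the p-values measure the spread between libraries. The number of genes called depended on which cells and libraries entered: 410 of 2554 genes passed when every cell was first thinned to 1500 UMIs, and 1196 of 5278 among cells with at least 4 of the 5 markers, a limit added after seeing the data.

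Spi1, the gene of PU.1, the factor that sets myeloid identity, rose most among the 10 listed transcription factors of nonclassical monocytes. Spi1 (chr2:91082390-91115756, plus strand, mm10) was 942 to 1134 CPM (median 1073) in ntCZC and 264 to 382 CPM (median 325) in tissue, so every ntCZC library lay above every tissue library. The log2 change was 1.45 ± 0.13 (adjusted p = 9.46e-09). Among the 10 listed transcription factors of nonclassical monocytes, which were all tested, 5 were higher in ntCZC, against 19.1% of all genes, 0 were lower, and the median was 0.40. Irf5, an interferon regulatory factor, rose by 1.05 ± 0.16 (241 to 293 against 80.7 to 184 CPM), Klf2, a factor of quiescence and vascular traffic, by 0.99 ± 0.24, Pou2f2 by 0.62 ± 0.18 and Cebpb by 0.53 ± 0.15. Nr4a1, on which these cells depend, was 374 to 949 CPM in ntCZC and 309 to 729 CPM in tissue, with overlapping libraries and a log2 change of 0.11 ± 0.21 (adjusted p = 0.715). Klf4, Tcf7l2, Bcl6 and Irf8 did not pass either, with changes between -0.16 and 0.27. In cells with at least 4 markers only Spi1 (1.22 ± 0.16) and Irf5 passed, and Klf2, Cebpb and Pou2f2 did not, and after thinning to 1500 UMIs only Spi1 passed.

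Several genes of patrolling and adhesion were higher in ntCZC. Of 18 listed, 16 passed the limit on low counts, and of these 7 were higher and 4 lower, against 19.1% and 21.3% of all genes. Cx3cr1 (chr9:119901616-120069879, minus strand) was 269 to 425 CPM (median 338) in ntCZC and 97.5 to 235 CPM (median 171) in tissue, without overlap, a log2 change of 0.86 ± 0.17 (adjusted p = 4.96e-04). Itga4 and Itgb2, an integrin alpha and a leukocyte integrin beta chain, rose by 0.88 ± 0.15 and 0.52 ± 0.15, and Selplg, the ligand of P-selectin, by 0.61 ± 0.16. Spn was 238 to 548 CPM against 125 to 338 CPM with partly overlapping libraries (0.76 ± 0.21), and S1pr5, the sphingosine-1-phosphate receptor linked to egress of these cells, 74.7 to 149 against 18.7 to 99.7 CPM (1.02 ± 0.30). Itgal, Itgam and Itgax, the other leukocyte integrin alpha chains, differed by -0.11 to 0.23 and did not pass. Cd44, a hyaluronan receptor, fell (-1.07 ± 0.14, 348 to 614 against 766 to 1235 CPM, no overlap), and Cxcr4 was also lower (-0.87 ± 0.28). S1pr1 had 3 UMIs in all ntCZC cells and 252 in tissue cells, and Pecam1 6.97 to 95.1 against 110 to 233 CPM. Both are also genes of endothelium, whose list moved the same way (0 to 6.97 CPM in ntCZC, 503 to 1022 CPM in tissue), and its part in these decreases was not tested. After thinning every cell to 1000 UMIs and pooling the tissue libraries, 4.81 and 8.32% of nonclassical monocytes held a UMI of each, and 15.9 and 11.5% of B cells, which can express both genes and so give no background.

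Several of these increases depended on which cells entered. Cx3cr1, Spn, S1pr5 and Itgb2 no longer passed with at least 3 markers, with 0 UMIs of 10 further genes of other cell types, or after thinning to 1500 UMIs, while keeping their direction. Marker number moved with these genes within each compartment. In tissue, Cx3cr1 was 70.3 CPM in cells with 2 markers and 248 CPM in cells with 5, and Spn 83.3 and 407 CPM. In ntCZC, Cx3cr1 was 290 and 354 CPM and Spn 234 and 534 CPM for the same steps. At 5 markers the ntCZC cells were still above tissue for Cx3cr1 (354 against 248 CPM), Klf2 (1535 against 886 CPM) and Spi1 (1115 against 462 CPM), while Nr4a1 was 789 against 864 CPM. These sums over cells carry no test. With at least 4 markers per cell, the change of Cx3cr1 was 0.56 ± 0.19 (adjusted p = 0.0458) and that of Spn 0.41 ± 0.21 (adjusted p = 0.183) in the same edgeR test over 7 ntCZC and 3 tissue libraries.

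**Figure D2:**
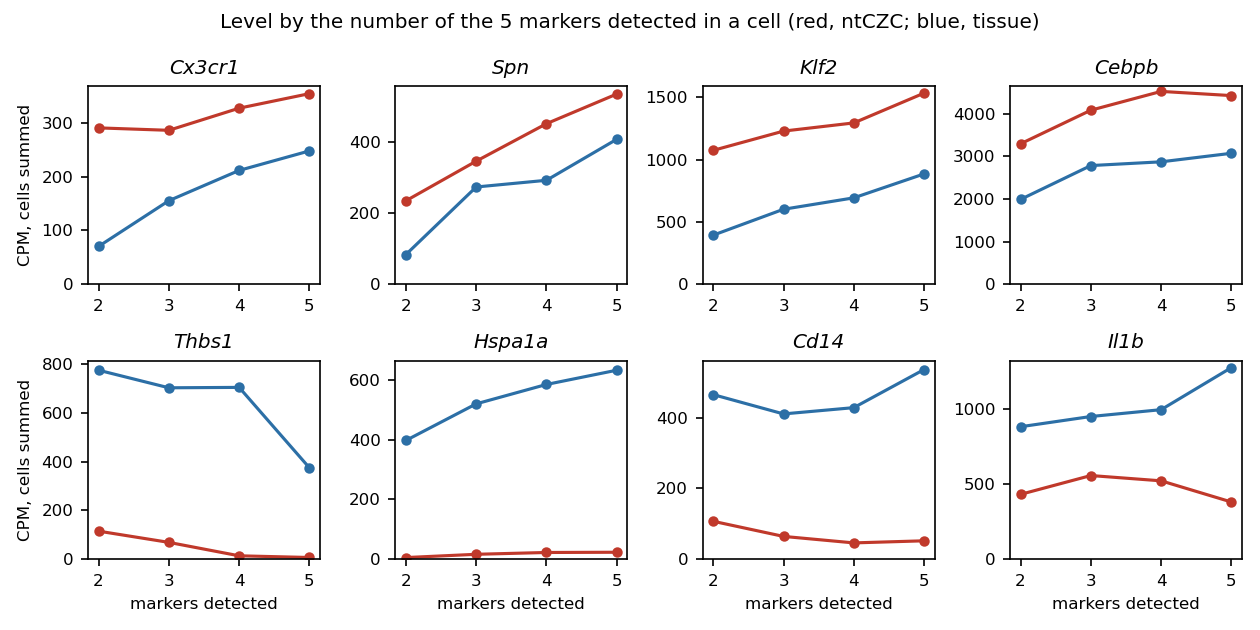
Level of 8 genes, in CPM over summed cells, against the number of the 5 marker genes detected in a cell (2 to 5), for ntCZC (red) and tissue (blue). Cx3cr1 and Spn rise with marker number in tissue, from 70.3 to 248 CPM and from 83.3 to 407 CPM, while Thbs1, Hspa1a, Cd14 and Il1b stay higher in tissue at every marker number.

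Among Fc receptor and signalling genes, 8 of 9 listed were tested, 5 rose in ntCZC, against 19.1% of all genes, and 0 fell. Fcer1g, the common gamma chain through which Fcgr4 signals, (chr1:171229572-171234365, minus strand) was 2944 to 4404 CPM (median 3823) in ntCZC and 1184 to 1747 CPM (median 1366) in tissue, without overlap (1.17 ± 0.13, adjusted p = 3.08e-07). The Src family kinase genes Lyn and Fgr rose by 0.87 ± 0.13 and 0.80 ± 0.19. Fcgr3 rose by 0.85 ± 0.18. Fcgr4, the receptor typical of these cells, was 92.0 to 319 against 73.2 to 262 CPM and did not pass (0.46 ± 0.27, adjusted p = 0.186). Syk and the inhibitory receptor gene Fcgr2b did not pass, and Fcgr1 was not tested. After thinning to 1500 UMIs Fcer1g still passed, while Fcgr3, Lyn and Fgr did not.

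Paired and inhibitory receptor genes showed the same direction for most members. Of 18 listed genes 16 were tested, 12 rose and 2 fell, against 19.1% and 21.3% of all genes, with a median of 0.87. Cd300e, an activating receptor of the CD300 family, was 199 to 367 CPM (median 305) in ntCZC and 16.3 to 125 CPM (median 97.7) in tissue (1.59 ± 0.22, adjusted p = 8.74e-06). Sirpb1c (1.35 ± 0.20), the C-type lectin genes Clec4a3 (1.32 ± 0.17) and Clec12a (0.89 ± 0.16), Pilra (1.05 ± 0.20) and Cd300a (1.01 ± 0.15) had no overlap either. Cd300lf, an inhibitory CD300 receptor (-2.08 ± 0.35), and Lilr4b (-1.65 ± 0.29) fell. Many of these receptors have close paralogs, between which the counting can split reads. Cd300ld, called higher at 0.44 ± 0.15, turned slightly negative under 4 other choices of cells or depth. With at least 4 markers, 9 of 16 tested receptor genes were higher and 3 lower (463 and 733 of 5278 genes overall), and after thinning to 1500 UMIs 2 were still called higher, Cd300e and Clec4a3.

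Among growth factor receptors and survival genes, all 9 listed genes were tested, and 3 rose and 2 fell, against 19.1% and 21.3% of all genes. Csf2ra rose by 0.95 ± 0.13 while Csf2rb, which codes for the other chain of the receptor for the growth factor GM-CSF, fell by 0.93 ± 0.15, both without overlap. Bcl2, which opposes apoptosis, rose by 0.81 ± 0.23 and Tnfrsf1b by 0.64 ± 0.16. Ptafr, the receptor of platelet-activating factor, was 25.4 to 61.9 CPM in ntCZC and 110 to 218 CPM in tissue, and fell by 2.21 ± 0.22. Mcl1 differed by -0.01 ± 0.11 (adjusted p = 0.961). With at least 4 markers Csf2ra, Bcl2 and Ptafr were still called, and Csf2rb and Tnfrsf1b were not.

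Of the protein-coding genes that the naming rule took, Eno3, the muscle-type enolase of glycolysis, rose most. Eno3 (chr11:70657202-70662513, plus strand) was 405 to 502 CPM (median 445) in ntCZC and 48.7 to 128 CPM (median 58.1) in tissue (2.40 ± 0.19, adjusted p = 1.97e-09). In both compartments it was above the other cells of its library in 7 of 7 libraries, and those other tissue cells averaged 3.88 CPM. Of the 15 tested of 21 listed glycolysis genes, 5 rose, against 19.1% of all genes, and 1 fell, with a median of 0.30, and Eno1, the common enolase gene, rose by 0.93 ± 0.14. Gapdh, Pgk1 and Ldha differed by 0.32, -0.02 and -0.18 and did not pass. With at least 4 markers 1 of 16 tested genes, Eno3, was called higher, and Eno1 and the other 3 were not.

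The other genes that the naming rule put among the 12 largest increases were AY036118 (2.83 ± 0.36), Bbc3 (2.25 ± 0.32), Abi3 (2.03 ± 0.18), Lyl1 (2.02 ± 0.22), Htra2 (1.87 ± 0.26), Limd2 (1.73 ± 0.19), Lrrc25 (1.69 ± 0.17), Arhgef1 (1.66 ± 0.17), Gm5150 (1.65 ± 0.21), Cd180 (1.63 ± 0.22) and Rasa3 (1.62 ± 0.22). Bbc3 codes for PUMA, which promotes apoptosis, and Abi3 for an adaptor of the actin-regulating WAVE complex. Lyl1 is a hematopoietic transcription factor gene, Htra2 a mitochondrial protease gene, Cd180 a Toll-like receptor relative, and Arhgef1 and Rasa3 regulate small GTPases. AY036118, annotated in GENCODE as a lincRNA gene at chr17:39847113-39848035 (mm10), was 388 to 1133 CPM in ntCZC and 16.3 to 211 CPM in tissue. Some of these genes were also higher in ntCZC among B cells of the same libraries, AY036118, Lyl1, Limd2 and Arhgef1 by 3.02 ± 0.39, 1.89 ± 0.30, 1.99 ± 0.20 and 1.60 ± 0.21 in the same edgeR test.

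**Figure D3:**
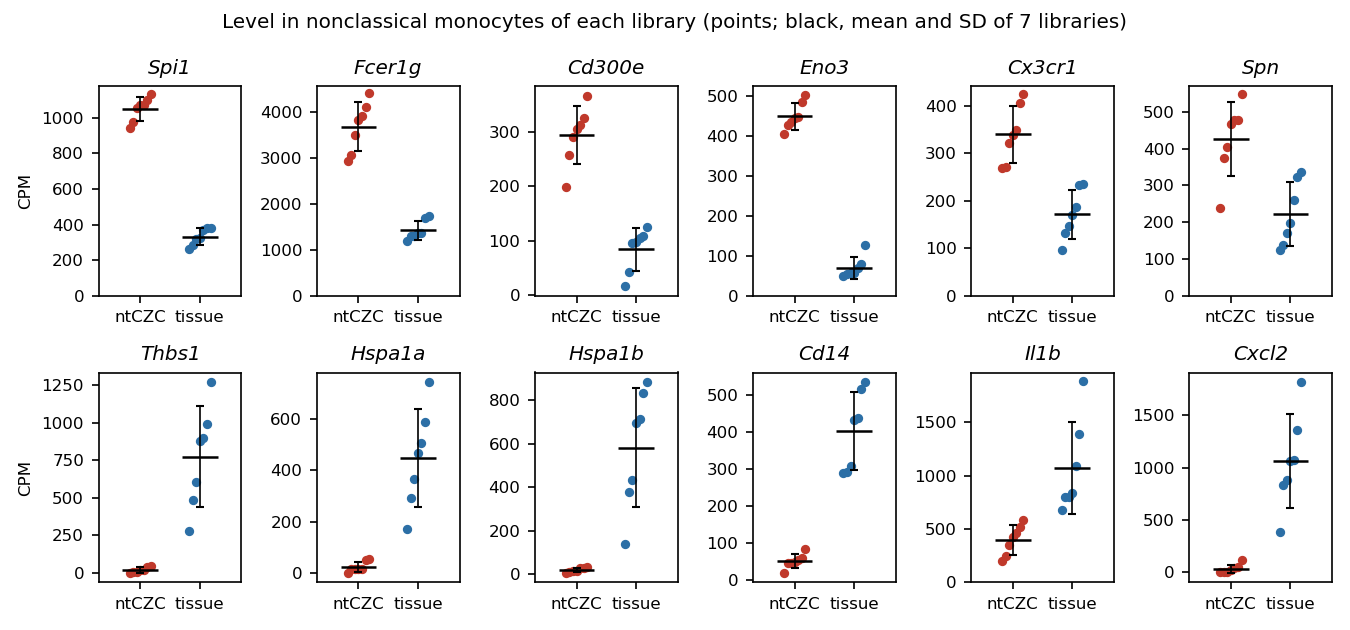
Level in CPM of 12 genes in the nonclassical monocytes of each of 7 ntCZC (red) and 7 tissue (blue) libraries, drawn in order of value, with mean and SD in black. Spi1, Fcer1g, Cd300e, Eno3 and Cx3cr1 do not overlap and are higher in ntCZC, whereas Thbs1, Hspa1a, Hspa1b, Cd14, Il1b and Cxcl2 do not overlap and are higher in tissue.

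Many of the largest decreases were genes of other cell types. The 12 genes that fell most were Scgb1a1 (airway club cells), Tff1 (stomach mucous cells), Spp1, Epas1, Timp3, Igkc (immunoglobulin light chain), Plet1, Gpx3 (kidney proximal tubule), Igfbp7, Wfdc2, Ptprb and Adgrf5 (endothelium). Scgb1a1 had 0 UMIs in ntCZC and 187 to 21282 CPM in the tissue libraries, with 33996 of its 49872 tissue UMIs in wt replicate 1. In that library 33853 of them lay in the 5 chosen cells with the most, and only 11.5% of the chosen cells held a Scgb1a1 UMI once each was thinned to 1000 UMIs. Tff1 was as uneven, with 4696 of its 4837 tissue UMIs in cells with 2 of the 5 markers and 4574 in 5 cells of wt replicate 1. Epas1 had 0 UMIs in ntCZC and was at least 360-fold lower there when set against a floor of 3 UMIs over all ntCZC cells (0.718 CPM). Gpx3 had 5 UMIs in ntCZC and 6295 in tissue and Spp1 1 and 7826, of which 7114 were in wt replicate 2 and 6024 in 5 cells of that library. B cells of the same tissue libraries, which should lack these transcripts other than Igkc, also held them. After thinning each cell to 1000 UMIs and pooling the 7 tissue libraries, Gpx3 was found in 64.5% of nonclassical monocytes and 65.0% of B cells, Scgb1a1 in 42.2 and 41.3%, and Epas1 in 12.1 and 11.1%. The libraries contributed unequally to the pools, since wt replicate 1 held 226 of the 870 monocytes and 512 of the 7794 B cells. Within libraries the share was higher in monocytes than in B cells in 2 of 7 for Gpx3, 4 of 7 for Scgb1a1 and 3 of 7 for Epas1, with differences of -7.62 to 15.7 percentage points over the 3 genes. Plet1 was found in more tissue monocytes (6.33%) than B cells (3.89%), and in 5 of 7 libraries. Median depth before thinning was 3055 UMIs in these monocytes and 2184.5 in the B cells. For these genes of organ cells, a share at or below that in B cells of the same library is not read as expression by the monocytes. In the pools, kidney proximal tubule genes together had a UMI in 74.7% of tissue monocytes and 74.6% of tissue B cells, lung epithelial genes in 46.4 and 44.8%, and endothelial genes in 18.4 and 20.1%. Within libraries the monocyte share was the higher in 2, 5 and 5 of 7, and the monocyte share for lung genes ran from 15.5 to 68.3%. None of 856 thinned ntCZC monocytes held an endothelial UMI, which allows up to 0.350% at that depth. Unthinned, the endothelial list summed to 1.36, 6.97 and 0.707 CPM in 3 ntCZC libraries and to 0 in the other 4.

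Other decreases concerned genes that the tissue nonclassical monocytes held at a higher level than the rest of their library. Of the 1046 genes lower in ntCZC, 321 were above the other cells in all 7 tissue libraries and 76 in none. The same share over all genes tested is not given here. The other cells were a mix from whole organs, so the 321 are not genes particular to these monocytes, and the ribosomal protein gene Rps15 is among them. Of the 12 of the 321 named by the rule, Thbs1, the gene of the matrix glycoprotein thrombospondin 1, fell most. Thbs1 (chr2:118111876-118127133, plus strand) was 0 to 43.2 CPM (median 18.8) in ntCZC and 279 to 1272 CPM (median 878) in tissue, so the libraries were far apart (-5.16 ± 0.39, adjusted p = 1.42e-09). A Thbs1 UMI was found in 1.40% of ntCZC monocytes, 25.7% of tissue monocytes and 9.16% of tissue B cells after thinning, and in more monocytes than B cells in 7 of 7 tissue libraries. By library, the 5 tissue monocytes with the most held 15.4 to 81.6% of the Thbs1 UMIs. In tissue cells with all 5 markers Thbs1 was 374 CPM, below the 775 CPM of cells with 2, and in ntCZC it was 6.54 and 115 CPM.

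Cd14, the lipopolysaccharide co-receptor of monocytes, was 20.4 to 84.9 CPM (median 48.8) in ntCZC and 291 to 535 CPM (median 432) in tissue (-3.13 ± 0.24, adjusted p = 2.06e-09). After thinning, 4.91% of ntCZC monocytes, 25.1% of tissue monocytes and 6.66% of tissue B cells held a UMI, and in cells with all 5 markers the level was 51.8 against 537 CPM. Lower levels were also found for Osm, a cytokine of the interleukin-6 family (-2.37 ± 0.41), Clec4n (dectin-2, -2.61 ± 0.30), Bcl2l11, which codes for the apoptosis inducer BIM (-2.12 ± 0.25), and Avpi1 (-2.32 ± 0.29). Their thinned shares in tissue monocytes (4.81 to 15.5%) were above those in tissue B cells (1.70 to 11.7%) in the pools, in 7 of 7 libraries for Cd14, Osm, Clec4n and Avpi1 and in 4 of 7 for Bcl2l11. Some of these shares rest on few cells. In null replicate 3 Clec4n had 5 UMIs, with shares of 1.59 and 1.30%. By library, the 5 monocytes with the most held 17.9 to 63.6% of the Cd14 UMIs, 24.5 to 83.3% of Osm and 31.5 to 100% of Clec4n. Smox, which oxidizes spermine (-3.13 ± 0.29), and Got1, an aspartate aminotransferase gene (-2.66 ± 0.33), fell as well. For Crem (-4.27 ± 0.30), a cAMP-responsive transcription factor gene, the share in tissue B cells (17.4%) was above that in tissue monocytes (12.5%), and for Got1 the 2 shares were 8.98 and 8.44%, but B cells can express both genes, so these shares give no background. Rps15, a ribosomal protein gene, was 335 to 501 CPM in ntCZC and 1258 to 1801 CPM in tissue (-2.10 ± 0.13), and it was lower in ntCZC B cells by nearly the same amount (-1.98 ± 0.18).

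**Figure D4:**
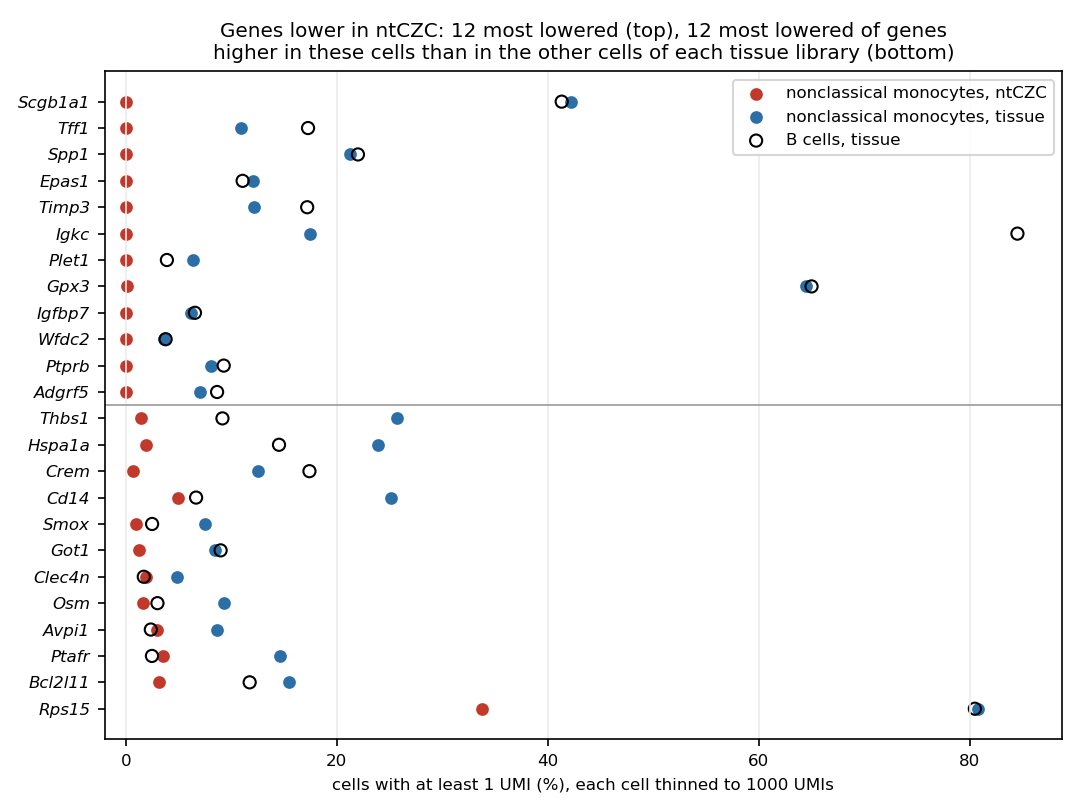
Share of cells with at least 1 UMI, each cell thinned to 1000 UMIs and libraries pooled, for 24 genes lower in ntCZC. Filled points are nonclassical monocytes of ntCZC (red) and tissue (blue) and open circles are tissue B cells. Gpx3 is found in 64.5% of tissue monocytes and 65.0% of tissue B cells and Igkc, which B cells make, in more B cells, whereas Thbs1, Cd14 and Ptafr are found in more tissue monocytes than B cells.

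Heat shock genes code for chaperones that are induced when proteins unfold, through heat shock factor binding to repeated GAA units. All 14 listed genes were tested, 13 fell in ntCZC and 0 rose, with a median of -1.04, against 21.3% of all genes lower. Hspa1a, an inducible HSP70 gene, was 0 to 55.8 CPM (median 15.3) in ntCZC and 171 to 744 CPM (median 466) in tissue (-4.61 ± 0.37, adjusted p = 3.29e-09). Its near-identical neighbor Hspa1b was 6.79 to 31.9 CPM (median 14.8) against 138 to 883 CPM (median 695) (-5.21 ± 0.36), and reads may be split between the pair. Smaller decreases were found for Hsph1, an HSP70 exchange factor gene (-1.44 ± 0.29), the HSP90 genes Hsp90aa1 (-1.12 ± 0.16) and Hsp90ab1 (-0.59 ± 0.13), and the mitochondrial chaperonin genes Hspe1 (-0.96 ± 0.17) and Hspd1 (-0.73 ± 0.16). When cells were thinned to 1500 UMIs, Hspa1a, Hspa1b, Hsp90aa1 and Hspe1 still passed (4 of 11 tested) while Hsph1, Dnaja1, Dnajb1, Hsp90ab1 and Hspa5 did not, and Hspd1 turned to 0.14. Hspb1 had 2 UMIs in ntCZC and 507 in tissue, 197 of them in het replicate 2, and after thinning to 1000 UMIs it was found in 4.10% of tissue monocytes and 6.40% of tissue B cells. The constitutive Hspa8 was 1687 to 2135 against 1440 to 1979 CPM and did not pass (-0.07 ± 0.12, adjusted p = 0.663).

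The promoters of 5 of the heat shock genes that fell are shown, all of them with the units described next. Each run is the 250 bases before a RefSeq start site in GRCm38.p6, 5′ to 3′ on the gene's strand, and capitals mark the paired units GAANNTTC or TTCNNGAA, each of which reads the same on both strands, and overlapping matches are joined. They lie at chr17:34972157-34972406 (minus strand) for Hspa1a, chr17:34959239-34959488 (minus) for Hspa1b, chr5:149636337-149636586 (minus) for Hsph1, chr5:135887669-135887918 (plus) for Hspb1 and chr1:55087898-55088147 (plus) for Hspe1, whose window also holds the units of its divergent partner Hspd1.
Hspa1a: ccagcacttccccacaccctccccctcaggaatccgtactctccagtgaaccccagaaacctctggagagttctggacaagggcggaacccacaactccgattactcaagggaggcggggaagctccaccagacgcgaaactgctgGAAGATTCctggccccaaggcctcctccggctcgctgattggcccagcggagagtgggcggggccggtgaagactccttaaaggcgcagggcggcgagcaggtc
Hspa1b: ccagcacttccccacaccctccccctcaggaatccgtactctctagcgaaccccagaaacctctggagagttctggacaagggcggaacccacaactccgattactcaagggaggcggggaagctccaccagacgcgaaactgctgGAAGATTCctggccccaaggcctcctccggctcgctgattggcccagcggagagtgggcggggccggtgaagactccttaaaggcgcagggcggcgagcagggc
Hsph1: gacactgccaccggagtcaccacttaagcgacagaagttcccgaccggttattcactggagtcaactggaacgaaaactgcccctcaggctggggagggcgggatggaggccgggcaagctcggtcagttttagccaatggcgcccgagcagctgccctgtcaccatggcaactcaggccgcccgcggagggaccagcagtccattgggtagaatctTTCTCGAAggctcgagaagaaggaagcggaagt
Hspb1: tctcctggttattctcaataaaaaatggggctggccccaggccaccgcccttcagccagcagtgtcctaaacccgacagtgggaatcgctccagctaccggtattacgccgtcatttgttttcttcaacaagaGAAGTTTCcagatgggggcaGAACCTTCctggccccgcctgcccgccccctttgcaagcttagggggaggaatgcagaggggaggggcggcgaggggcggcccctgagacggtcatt
Hspe1: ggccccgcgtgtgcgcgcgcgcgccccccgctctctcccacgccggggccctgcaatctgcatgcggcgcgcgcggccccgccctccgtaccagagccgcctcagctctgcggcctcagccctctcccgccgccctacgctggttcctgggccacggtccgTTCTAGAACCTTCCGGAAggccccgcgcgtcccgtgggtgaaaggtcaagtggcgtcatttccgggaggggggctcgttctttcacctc
At least 1 such unit stood in the window of 8 of the 11 listed genes in the table (Dnaja1, Dnajb4, Hspa1a, Hspa1b, Hspb1, Hspd1, Hspe1 and Hsph1), some of which have several start sites. Counted by window, 9 of the 17 windows of these genes held one, against 4218 of 32851 windows of all genes (12.8%). These 9 are not all separate. The Hsph1 windows overlap and share the same stretch, as do those of Hspd1 and Hspe1, and the windows of Hspa1a and Hspa1b are nearly identical. Bag3, Dnajb1 and Hspa5, which also fell, had no match in these windows, and Hsp90aa1, Hsp90ab1 and Hspa8 were not matched to the table. In Hspa1a and Hspa1b the unit began 104 bases before the start. A match is a description of these letters.

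The fall in heat shock genes was also seen in B cells of the same libraries, a comparison added after seeing the data. In 5 ntCZC and 7 tissue libraries with at least 20 of both cell types, 7 of the 14 genes were lower in ntCZC B cells in edgeR's test, where 23.1% of all genes were lower. Hspa1a fell by 4.10 ± 0.68 in B cells, and the change in monocytes minus the change in B cells was 0.24 ± 0.54 (adjusted p = 0.885, an interaction fitted within libraries). Across the list this difference passed for 2 genes, Bag3 (higher) and Hspb1 (lower), with a median of 0.08, against 835 of 7621 genes overall (11%), 537 higher and 298 lower. With another scaling the overall median of the differences moved from 0.21 to 0.10 and the split to 429 higher and 372 lower. Rps15 differed by -0.01 ± 0.15 between monocytes and B cells. Spi1 differed by 1.11 ± 0.28 (adjusted p = 0.0126), so its rise was larger in the monocytes.

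Immediate early genes, the transcription factors and phosphatases induced within minutes of a stimulus, were divided. Of 22 listed 20 were tested, 9 fell, against 21.3% of all genes, and 1 rose. Fosb was 0 to 39.4 CPM in ntCZC and 251 to 439 CPM in tissue (-4.08 ± 0.28, adjusted p = 4.36e-10). Egr1 (-3.69 ± 0.58), Ier3 (-5.14 ± 0.49), Nr4a3 (-5.69 ± 0.46) and Nr4a2 (-2.94 ± 0.39) fell with no overlap, while Fos (-0.72 ± 0.24) and Jun (-1.27 ± 0.38) were lower with overlapping libraries and were not called with at least 4 markers. Ier2 rose by 1.00 ± 0.21. Junb, Jund, Atf3, Dusp1, Zfp36 and Btg2 did not pass, with changes between -0.62 and 0.32. Tissue B cells held Egr1 at least as often as tissue monocytes (14.4 against 9.96% after thinning) and Nr4a3 nearly so (7.55 against 8.91%). Immediate early genes are expressed by B cells too, so these shares do not give a background.

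Among inflammatory cytokine genes and targets of NF-kB, 15 of 20 listed were tested, 11 fell in ntCZC, against 21.3% of all genes, and 0 rose. Il1b, which codes for the inflammasome cytokine interleukin-1 beta, (chr2:129364570-129371139, minus strand) was 197 to 587 CPM (median 424) in ntCZC and 683 to 1884 CPM (median 835) in tissue (-1.59 ± 0.21, adjusted p = 2.95e-06). It was found in 27.9% of ntCZC monocytes, 43.3% of tissue monocytes and 9.02% of tissue B cells after thinning. Cxcl2, a neutrophil chemokine gene, was 4.07 to 115 CPM (median 20.9) against 384 to 1819 CPM (median 1066) (-4.87 ± 0.52), with shares of 2.10%, 24.3% and, in tissue B cells, 14.0%. Il1rn, the interleukin-1 receptor antagonist gene (-3.87 ± 0.29), the chemokine gene Ccl3 (-1.87 ± 0.54), Tnf (-1.69 ± 0.45), the inflammasome sensor gene Nlrp3 (-1.70 ± 0.23), Icam1 (-1.64 ± 0.26) and Tnfaip2 (-1.65 ± 0.21) fell too. With at least 4 markers 7 of 14 tested genes were called lower, and Ccl3 and Tnf were not among them. Nfkbia and Nfkb1, which code for an inhibitor and a subunit of NF-kB, differed by -0.18 and -0.24 and did not pass. Cxcl1 had 0 UMIs in ntCZC and 183 in tissue, where it was found in 1.76% of monocytes and 1.34% of B cells after thinning. Other myeloid marker lists moved with this group: the classical monocyte and alveolar macrophage lists as given above, and 10 neutrophil genes, which summed to 0 to 82.8 CPM in ntCZC, with Ly6g, Camp, Ngp and Ltf at 0 and Retnlg at 0 by the rule, and to 91.4 to 938 CPM in tissue. Between tissue cells with 2 and with 5 markers Cxcl2 was 1648 and 650 CPM and Il1rn 213 and 55.0 CPM, whereas Il1b was 881 and 1274 CPM. The part of these lists in the result was not tested.

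**Figure D5:**
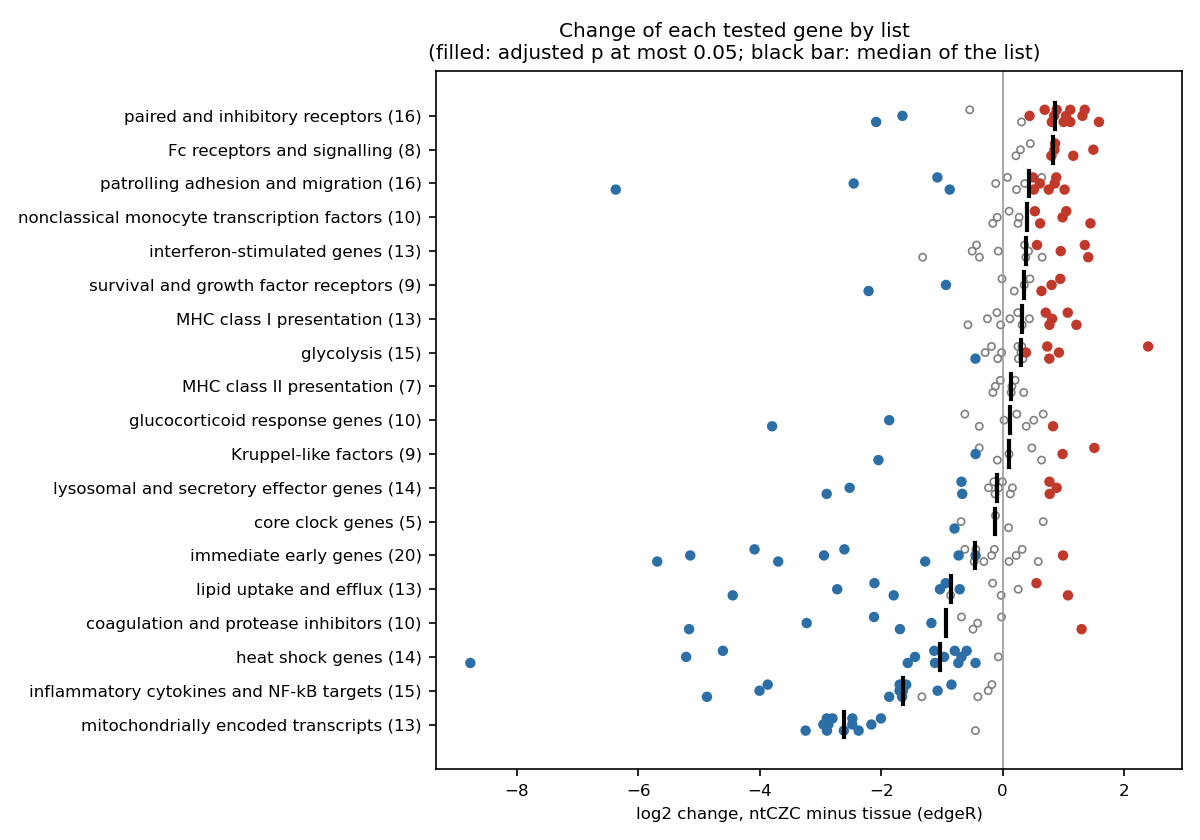
Log2 change, ntCZC minus tissue, of each tested gene in 19 lists (number tested in brackets). Filled points passed an adjusted p of 0.05 (red higher, blue lower in ntCZC) and black bars are list medians, which run from 0.87 for paired receptors to -2.61 for mitochondrially encoded transcripts. The mitochondrial list is a description, since the rule limits these transcripts.

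Depth, mitochondrial content and transcripts of organ cells moved with these results. The rule itself limits mitochondrially encoded transcripts to 25% of a cell's UMIs, so their values are a description. Of the 13, 12 were lower in ntCZC, against 21.3% of all genes, with a median of -2.61. The level of mt-Co3, for example, was 2188 to 3669 CPM in ntCZC and 14381 to 34039 CPM in tissue. In B cells 11 of them were lower, against 23.1% of all genes. The endothelial, kidney and lung values given above moved with the same split of libraries. So did 8 red cell genes, at 0 to 128 CPM in ntCZC and 83.4 to 14431 CPM (median 1603) in tissue, with partly overlapping libraries. The other tissue cells had a median of 9125 CPM of them. The part of all these genes in the lower heat shock, immediate early and inflammatory genes was not tested. With at most 10% mitochondrial UMIs, 7 ntCZC and 3 tissue libraries still held at least 20 cells. There 1975 of 7026 genes passed, and all 36 genes named by the rule kept their direction and passed. With 0 UMIs required for 10 further genes of other cell types, 1066 of 3675 genes passed. The 23 named genes that could be tested then all passed in the same direction. The named genes were chosen in these data for large changes without overlap, so their calls here are no independent support.

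Unsorted blood was available from 1 wt male of 120 days, a library of peripheral blood mononuclear cells (PBMC) with 11 nonclassical monocytes and 25560 UMIs in them. Spi1 was 1174 CPM there (95% Poisson interval 792 to 1676), Eno3 391 CPM (188 to 719), Cx3cr1 469 CPM (243 to 820) and Fcer1g 4225 CPM (3466 to 5101). Thbs1 and Cxcl2 had 0 UMIs, with an upper bound of 144 CPM, and Hspa1a, Hspa1b, Cd14 and Il1b had 1, 1, 2 and 2 UMIs. For each of these 10 genes the interval overlapped the range of the ntCZC libraries, and for Hspa1a and Hspa1b it overlapped the tissue range as well. Rps15 was 2269 CPM (1723 to 2933), which overlapped the tissue range and not that of ntCZC. AY036118 was 313 CPM (135 to 617), with an interval reaching both ranges. The PBMC library has no replicate and the mouse was younger.

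Nalcn itself had 0 UMIs in the nonclassical monocytes of every library, so the deletion could not be checked in them, and the whole ntCZC libraries held 0. The whole tissue libraries of the comparison held 68 Nalcn UMIs (3 to 18 a library). Those labelled wt replicate 2 and null replicate 3 held 18 each, among 139793927 and 46667555 UMIs of all genes. For its depth the only null tissue library thus held the most Nalcn of the 7, which rests on 18 UMIs. These counts are over all cells of whole organs, whereas the Cre acts in cells expressing Prom1. They therefore cannot check the deletion or the label. Its genotype was read from the strain label, that of the others from their titles. Between 3 null and 3 het ntCZC libraries, 0 of 4949 genes passed in edgeR's test (0%) and 141 had an unadjusted p under 0.05, while DESeq2 called 0. Between 3 tissue libraries labelled as carrying a deleted allele (2 het, 1 null) and 4 labelled wt, 0 of 2341 genes passed (0%), 160 had an unadjusted p under 0.05 and DESeq2 called 2. All 3 het ntCZC libraries were male, while null replicates 1 and 4 were female and only null replicate 2 was male. With sex as a term, the contrast of null against het therefore rests on that 1 null library. Genotype and sex cannot be told apart in the other null libraries. How large a difference these sets of libraries could show was not tested.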

How the data were processed

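Single-cell RNA was captured with 10x Chromium 3′ chemistry (v3). The deposited matrices hold UMI counts, which the authors made with Cell Ranger (2.1.1 in the submitters' processing notes, 3.0.2 in the matrix headers) against mm10, and Seurat is named for later steps. Hashtag calls of organs were not used here, and no doublet caller was run, although the 0-UMI conditions remove cells that also hold transcripts of some other types. Cells were chosen by the rule stated above and their counts summed per library. Libraries with under 20 chosen cells were left out (3 ntCZC, 2 tissue), as were 2 tissue libraries whose labels conflict on genotype. Differences were tested with edgeR 4.0.16 (filterByExpr, TMM scaling, quasi-likelihood test, sex as a term, Benjamini-Hochberg adjustment) in R 4.3.3, after a test on simulated data, with DESeq2 1.42.0 as an alternative. The members, the gene lists and the tests were chosen with earlier results of these data known. Named genes were called, did not overlap between compartments and reached 50 CPM on average in the higher one: the 12 largest increases, the 12 largest decreases, and the 12 largest decreases among genes above the other cells of every tissue library. Listed genes were named from the lists. Tissue B cells had Cd79a and no Csf1r or Cd3e UMI. Summed UMIs were 123013 to 1597394 per library, and replicate libraries differed by more than counting noise. Other settings varied scaling, filters, covariates, libraries, marker number, mitochondrial limit and depth. Intervals and limits for 0 UMIs (3 counts, 95%) cover counting error only. Gene coordinates are from GENCODE vM21 (mm10). Promoter windows are from RefSeq (GRCm38.p6). 1 listed gene is counted in its list and not reported here by name.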

Additional observations from a re-analysis of the deposited data

Results flagged for a closer look

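Of 86 groups of library values examined, 16 had 1 library far from the others of its compartment. Chance alone gives about 1 in 20 where values are normally distributed. Levels of sparse genes need not be, and Spp1 in ntCZC was flagged on 1 UMI, so the 16 are not read against that share. Among the nonclassical monocytes of tissue, Eno3 (128 CPM) and Rasa3 (108 CPM) were highest in the het replicate 1 library, Tff1 (2883 CPM) in wt replicate 1, Spp1 (5782 CPM) in wt replicate 2, Igkc (1337 CPM) in wt replicate 4, Bcl2l11 (285 CPM) in wt replicate 3 and Igfbp7 (591 CPM) in het replicate 2. In the same tissue cells the immediate early genes summed to 16942 CPM in het replicate 2, and the alveolar macrophage genes to 4594 CPM in wt replicate 1.

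Among the ntCZC libraries, het replicate 2, which held 26 of the chosen cells, was apart for Smox (27.9 CPM, highest), Clec4n (0 CPM, lowest), the endothelial genes (6.97 CPM summed) and the lung epithelial genes (6.97 CPM summed), the last 2 resting on 1 UMI each in this, the shallowest of the 7 ntCZC libraries compared (143380 UMIs). Spp1 was at 1.36 CPM in wt replicate 1 only, Osm was highest in het replicate 4 (54.5 CPM), and the mitochondrially encoded transcripts were highest in null replicate 4 (25731 CPM summed).

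For 4 of the genes named by rule, the change between ntCZC and tissue differed between nonclassical monocytes and B cells in edgeR's test of the difference within libraries. Bbc3 rose more in the monocytes, by 1.97 ± 0.59 (adjusted p = 0.0360), and Abi3 by 1.05 ± 0.34 (adjusted p = 0.0487). Got1 fell more in the monocytes, the difference being -2.01 ± 0.50 (adjusted p = 0.0121). The difference for Gm5150 was 7.37 ± 1.75 (adjusted p = 0.0122), a fitted value that depends on the prior count because B cells held few of its UMIs.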

How the results depend on the processing

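The count of genes called between ntCZC and tissue was 1984, and 1429 to 2261 when each library was left out in turn. It was 5524 (1404 higher, 4120 lower) of 17618 without a filter on low counts, 1059 of 2304 with libraries of at least 5 such cells, 1066 of 3675 with 0 UMIs required for 10 further genes, 410 of 2554 (125 higher, 285 lower) after thinning to 1500 UMIs, and 1196 with at least 4 markers (added after seeing the data). Fewer genes, cells or libraries entered most of these. No gene called in both had opposite directions. Blood and tissue libraries of the same number and genotype correlated by -0.069, -0.032 and 0.021, which cannot show whether they share a mouse. The 2 het replicate 1 libraries differed in age (610 and 551 days), while those of wt replicate 1 (571 days) and het replicate 2 (551 days) did not. A replicate block over those 3 pairs gave 1059 calls against 1078 without the block. For null against het such a block with sex as a term leaves the contrast to replicate 2 alone. Of the list genes called, Itgb7 turned to -0.024 with the 10 further genes at 0, Cd300ld to -0.014 with at least 3 markers, -0.11 with the 10 further genes at 0, -0.11 after thinning and -0.090 with at least 4 markers, and Hspd1 to 0.14 and Ifi27l2a to -0.16 after thinning. Of the 36 genes named by rule, chosen for large changes in these data, the call was lost for 1, Lrrc25 after thinning, among settings in which each could be tested. Calls between null and het ntCZC were 16 without a filter on low counts, 1 without sex as a term and 0 to 1 leaving libraries out. The fit without null replicate 2 could not be made, since it was the only male null library and all het libraries compared were male. Calls between tissue libraries with a deleted allele and wt were 2 in DESeq2, 128 without a filter and 0 to 3 leaving libraries out (3 without het replicate 2, 1 without wt replicate 1 and 1 without wt replicate 3). The difference between monocytes and B cells passed for 835 genes, and for 538 without ntCZC null replicate 4. Thinning also left fewer cells and libraries, so depth alone was not isolated.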

Other observations

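Of 14 listed genes of MHC class I presentation 13 were tested, 5 rose in ntCZC nonclassical monocytes in edgeR's test, against 19.1% of all genes, and 0 fell. The others, B2m, H2-K1 and Tap1 among them, did not pass. The immunoproteasome gene Psmb8 was 422 to 707 CPM in ntCZC and 146 to 286 CPM in tissue, and the class I heavy chain gene H2-D1 3660 to 5598 against 1455 to 2623 CPM, both without overlap. Of 7 tested MHC class II genes 0 passed, against 40.4% of all genes. Among 13 tested interferon-stimulated genes 4 rose (Zbp1, Ifi27l2a, Ifi209 and Ifitm3), against 19.1% of all genes, and 0 fell. Ifi27l2a turned to -0.16 after thinning to 1500 UMIs, and with at least 4 markers Zbp1 was the only one of the 4 still called. Klf13, a Kruppel-like factor gene, was 625 to 895 against 174 to 297 CPM (1.51 ± 0.16), whereas Klf7 fell.

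Genes of lipid handling and lysosomes were divided. Apoe, which carries lipid out of macrophages, was 3579 to 5304 CPM in ntCZC and 1138 to 2545 CPM in tissue, while 7 of 13 tested genes of lipid uptake and efflux fell, among them the fatty acid transporter gene Cd36, against 21.3% of all genes. Alveolar macrophage genes moved with them (337 to 867 CPM summed in ntCZC, 1356 to 4594 CPM in tissue), and in tissue Lpl was 712 CPM in cells with 2 markers and 231 CPM in cells with 5, and Fabp5 1225 and 206 CPM. The part of such cells in the result was not tested. Ctsd, which codes for the lysosomal protease cathepsin D, was 118 to 237 CPM in ntCZC, 565 to 1826 CPM in tissue and 78.2 CPM in the unsorted blood, where it rests on 2 UMIs in 11 cells (95% Poisson interval 9.48 to 283 CPM). Of 78 tested ribosomal protein genes 17 were higher and 17 lower, near the 19.1% and 21.3% of all genes, with a median of 0.04.

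In the 2 tissue libraries whose labels conflict on genotype, replicate 3 (45 nonclassical monocytes) and replicate 1 (96), Eno3 was 113 and 116 CPM, Thbs1 841 and 855 CPM, Cd14 529 and 343 CPM, Hspa1a 251 and 834 CPM and Rps15 1691 and 1948 CPM. Cxcl2 was 34.7 CPM in replicate 3 and 1151 CPM in replicate 1. In the ntCZC libraries below the minimum, null replicate 3 (7 cells) and het replicate 3 (6 cells), Eno3 was 139 and 327 CPM, Thbs1 17.4 and 123 CPM, Cd14 34.8 and 0 CPM and AY036118 974 and 1430 CPM. In the tissue libraries below it, null replicate 2 (12 cells) and wt replicate 5 (4 cells), Thbs1 was 339 and 735 CPM and Cd14 169 and 226 CPM.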
